A study of Homo sapiens with 8 samples.

Results

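The 10 plasma membrane amino acid transporter genes SLC7A11, SLC7A5, SLC3A2, SLC43A1, SLC38A1, SLC38A2, SLC1A4, SLC1A5, SLC7A1 and SLC6A9 were followed in T47D cells, an established line of luminal, estrogen receptor positive breast carcinoma. Members were taken by gene symbol on a whole-transcript microarray: all 10 genes were found, on 11 of the 21214 probe sets that carry a gene name, because SLC1A5 has 2 probe sets. None of the 11 shares its probe set with another gene name. A lentivirus had given them either a conditional hairpin (shRNA) against EglN2, one of the prolyl hydroxylases that use oxygen to mark HIF subunits, or a control hairpin named Scr. The 4 groups were EglN2 shRNA at day 2, after 48 h of doxycycline at 1 ug/ml, EglN2 shRNA at day 0, without doxycycline, Scr at day 2 with the same doxycycline, and Scr at day 0 without it. Each group had 2 arrays, 8 in all, so the Scr line shares the lentivirus and the doxycycline but not the hairpin sequence. No group was kept for 48 h without doxycycline, so doxycycline and time in culture cannot be told apart. The labels do not say whether a line was a pool or a clone, nor whether the arrays of a group came from different cultures. The p-values therefore cover the spread among these arrays alone, and that spread may be technical.

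Animal cells take up and exchange amino acids through solute carriers with distinct substrates. Exchangers of the SLC7 family that pair with the heavy chain SLC3A2 trade one amino acid for another. By contrast, SLC38A1, SLC38A2, SLC1A4 and SLC1A5 use sodium to move small neutral amino acids. When amino acids run short, the kinase GCN2 favours translation of the transcription factor ATF4, which activates several transporter genes. NRF2, an antioxidant factor, and MYC act on some of the same genes, and luminal breast cancer cells draw on these carriers for cystine, leucine and glutamine.

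Values are RMA levels on the log2 scale, so a difference of 1 is a doubling, and they order arrays within a probe set but not one gene against another. Array medians lay between 7.81 and 7.86, replicate arrays correlated at 0.992 to 0.996, and the median standard error was 0.123 for a difference between groups. EGLN2, on a probe set shared with the RAB4B-EGLN2 read-through, read 8.26 and 8.29 in the EglN2 shRNA line at day 2, against 8.85 and 9.04 at day 0. The Scr arrays gave 8.81 and 8.90 for it at day 2, against 8.97 and 9.0 at day 0. Its change of -0.67 in the EglN2 shRNA line (SE 0.11, limma adjusted p = 0.134) did not pass the threshold of 0.05, adjusted by Benjamini-Hochberg over all 21214 probe sets. All 13 luminal markers lay above the median named probe set (7.84) on average, against 2 of 8 measured basal and fibroblast markers and 0 of 11 measured leukocyte and endothelial markers. Because levels do not order one gene against another, these marker counts are only a rough description. In such bulk RNA, fewer cells of a type and less RNA per cell cannot be told apart.

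Promoter windows, from 250 bases before to 50 bases after an annotated start, were matched for 9 of the 10 genes in RefSeq (GRCh38.p14), as 16 windows. SLC7A11 had no window in the source used, so the motif counts do not cover it. They are shown because the lists described further on belong to factors whose motifs can be looked up there. On both strands, 3 motifs were searched: the amino acid response element TGATGNAA, bound by ATF4 with C/EBP factors, the antioxidant response element core TGACNNNGC of NRF2, and the E-box CACGTG of MYC and related factors. The antioxidant core shares letters with the AP-1 motif, and no match of one searched motif overlapped a match of another in the windows printed. Capitals mark the matches, and a match is a description of letters, not a site.
SLC43A1, chr11:57515653-57515952, minus strand: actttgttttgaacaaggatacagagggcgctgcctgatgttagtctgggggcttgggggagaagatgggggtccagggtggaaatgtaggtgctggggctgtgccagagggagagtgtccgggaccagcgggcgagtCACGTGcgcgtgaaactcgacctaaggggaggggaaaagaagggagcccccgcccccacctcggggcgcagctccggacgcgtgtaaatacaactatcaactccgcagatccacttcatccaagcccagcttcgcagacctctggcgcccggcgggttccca
SLC7A5, chr16:87869458-87869757, minus strand: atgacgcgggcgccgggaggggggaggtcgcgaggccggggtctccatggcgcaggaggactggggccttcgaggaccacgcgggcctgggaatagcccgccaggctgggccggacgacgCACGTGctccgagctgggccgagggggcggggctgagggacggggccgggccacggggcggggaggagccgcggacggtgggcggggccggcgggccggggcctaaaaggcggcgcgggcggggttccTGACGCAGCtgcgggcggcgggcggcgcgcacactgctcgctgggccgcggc
SLC3A2, chr11:62881449-62881748, plus strand: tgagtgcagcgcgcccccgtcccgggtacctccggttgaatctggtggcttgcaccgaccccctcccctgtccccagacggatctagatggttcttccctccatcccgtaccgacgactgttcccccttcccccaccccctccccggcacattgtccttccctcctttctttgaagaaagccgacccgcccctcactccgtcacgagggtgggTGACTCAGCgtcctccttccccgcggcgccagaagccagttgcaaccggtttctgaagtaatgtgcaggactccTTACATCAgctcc
SLC1A4, chr2:64989149-64989448, plus strand: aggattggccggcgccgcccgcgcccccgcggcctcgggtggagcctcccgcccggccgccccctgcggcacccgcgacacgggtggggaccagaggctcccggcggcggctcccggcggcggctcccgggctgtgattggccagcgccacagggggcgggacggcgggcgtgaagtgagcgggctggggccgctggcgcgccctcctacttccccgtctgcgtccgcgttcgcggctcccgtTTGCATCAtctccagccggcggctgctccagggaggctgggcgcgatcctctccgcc
SLC7A1, chr13:29595639-29595938, minus strand: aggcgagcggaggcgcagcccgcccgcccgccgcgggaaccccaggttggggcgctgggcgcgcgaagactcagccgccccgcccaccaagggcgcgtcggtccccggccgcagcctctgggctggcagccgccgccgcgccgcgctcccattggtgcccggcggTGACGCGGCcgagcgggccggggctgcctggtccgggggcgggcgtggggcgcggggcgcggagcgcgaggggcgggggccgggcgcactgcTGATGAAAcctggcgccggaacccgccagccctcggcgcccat
The SLC43A1 window holds an E-box 112 bases before the start, and the SLC7A5 window holds an E-box 130 bases before it and an antioxidant core 2 bases before it. In SLC3A2 an antioxidant core lies 37 bases before the start and an amino acid response element 37 bases after it. The SLC1A4 window holds an amino acid response element 7 bases before the start. In SLC7A1 an antioxidant core lies 85 bases before the start and an amino acid response element 7 bases after it. Of the 16 windows, 5 held an amino acid response element, against 3.62% of all 35116 windows. The antioxidant core was in 4, against 13.3%, and the E-box in 3, against 7.26%, each window being of a different gene for a given motif. Some genes have several windows, and the members were chosen with results of these arrays known, so these shares only describe the list. The windows of SLC6A9 and SLC38A2 hold none of the 3 motifs. Windows of SLC38A1 and SLC1A5 that hold matches are counted but not printed.

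**Figure D1:**
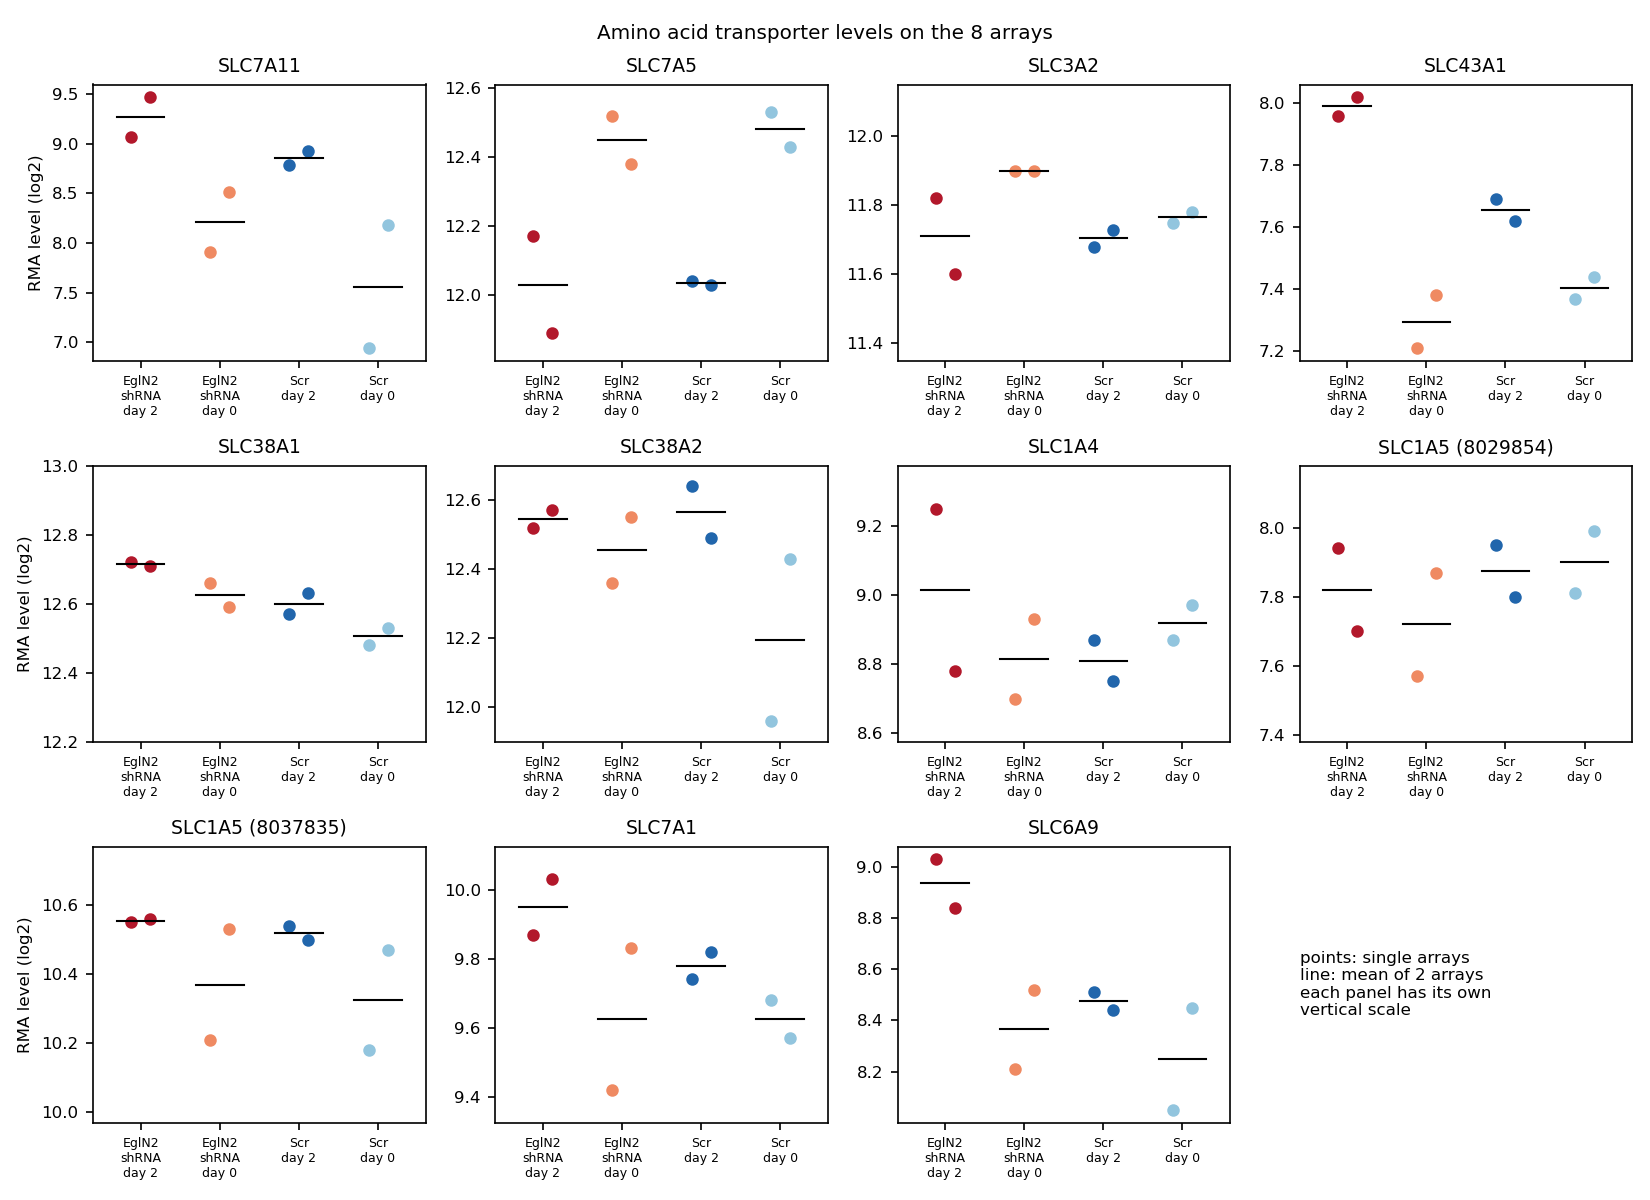
Level of each transporter probe set (RMA, log2) on the 8 arrays, with a point per array, a line at the mean of the 2 arrays of a group, and a vertical scale of its own in each panel. SLC7A11 spans 6.94 to 9.47, SLC43A1 is highest on the EglN2 shRNA day 2 arrays, at 7.96 and 8.02, and SLC38A1 lies between 12.48 and 12.72.

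SLC7A11, the light chain of the exchanger that brings in cystine in return for glutamate, had the largest positive change of the 21214 probe sets in each line and in the mean of both in the fit to all 8 arrays. It read 9.07 and 9.47 in the EglN2 shRNA line at day 2, against 7.91 and 8.51 at day 0. The Scr line gave 8.79 and 8.93 at day 2, against 6.94 and 8.18 at day 0. Every day 2 array lay above every day 0 array, and the Scr day 0 arrays lay furthest apart (mean 7.56 ± 0.88, SD, n = 2). The change was 1.06 in the EglN2 shRNA line (SE 0.34, limma adjusted p = 0.709) and 1.30 in the Scr line (SE 0.34, adjusted p = 0.260). Their mean was 1.18, or 2.27-fold (95% confidence interval 0.64 to 1.72, not adjusted for the number of genes, as are all intervals here). It did not pass (adjusted p = 0.117), and the gene ranked 138 by p among all probe sets. The Scr change was 0.68 without Scr day 0 replicate 1, the array at 6.94, and 1.92 without Scr day 0 replicate 2.

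SLC3A2, the heavy chain that carries both the cystine exchanger and the leucine exchanger to the surface, had a small negative change in each line. It read 11.82 and 11.60 in the EglN2 shRNA line at day 2, against 11.90 on both arrays at day 0. Scr arrays were at 11.68 and 11.73 at day 2, against 11.75 and 11.78 at day 0. Its mean change was -0.13 (SE 0.08, limma adjusted p = 0.591), with both day 2 arrays below both day 0 arrays in each line.

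SLC7A5, the light chain of the exchanger that brings in leucine and other large neutral amino acids, was lower on the day 2 arrays of both lines by a like amount. It read 12.17 and 11.89 in the EglN2 shRNA line at day 2, against 12.52 and 12.38 at day 0. Its Scr values were 12.04 and 12.03 at day 2, against 12.53 and 12.43 at day 0. The 4 day 2 arrays all lay below the 4 day 0 arrays. The change was -0.42 in the EglN2 shRNA line (SE 0.12, adjusted p = 0.545) and -0.445 in the Scr line (SE 0.12, adjusted p = 0.265), both by limma. The mean of -0.43 (interval -0.62 to -0.24) did not pass (adjusted p = 0.108). Among other settings, it passed when the prior variance followed intensity (adjusted p = 0.0418). It did not pass by limma with all 33297 probe sets (adjusted p = 0.363), after quantile normalization (0.0875) or after median centring (0.103). SLC7A5 has the related copies SLC7A5P1 and SLC7A5P2, and whether the probes separate them is not given in the sources used here.

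SLC43A1, a carrier that lets large neutral amino acids through without sodium or exchange, had the smallest p of the 10 genes in the mean of both lines and was higher at day 2, opposite to SLC7A5. It read 7.96 and 8.02 in the EglN2 shRNA line at day 2, against 7.21 and 7.38 at day 0. On Scr arrays the level was 7.69 and 7.62 at day 2, against 7.37 and 7.44 at day 0. Both EglN2 shRNA day 2 arrays lay above every other array, and both Scr day 2 arrays lay above every day 0 array. The change was 0.695 in the EglN2 shRNA line (SE 0.11, interval 0.46 to 0.93, limma adjusted p = 0.134), or 1.62-fold, and 0.25 in the Scr line (SE 0.11, adjusted p = 0.374). The mean of 0.47 (SE 0.07, interval 0.30 to 0.64) was short of the threshold (adjusted p = 0.0556). Among other settings, it passed when probe sets with a mean level under 6 were left out (adjusted p = 0.0408) and when the prior variance followed intensity (adjusted p = 0.0470). It did not pass by limma with all 33297 probe sets (adjusted p = 0.239), after quantile normalization (0.0640) or after median centring (0.0672).

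SLC6A9, the sodium- and chloride-driven glycine transporter, was also highest in the EglN2 shRNA line at day 2. It read 9.03 and 8.84 there, against 8.21 and 8.52 at day 0. The Scr line stood at 8.51 and 8.44 at day 2, against 8.05 and 8.45 at day 0, so the Scr arrays overlapped and the EglN2 shRNA arrays did not. The change was 0.57 in the EglN2 shRNA line (SE 0.16, interval 0.22 to 0.92, limma adjusted p = 0.519) and 0.225 in the Scr line (SE 0.16, adjusted p = 0.545), which became 0.025 without Scr day 0 replicate 1. The mean of 0.40 (SE 0.11) did not pass (adjusted p = 0.266).

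SLC7A1, the uptake system for arginine and lysine, read 9.87 and 10.03 in the EglN2 shRNA line at day 2, against 9.42 and 9.83 at day 0. Scr cells had 9.74 and 9.82 at day 2, against 9.68 and 9.57 at day 0. Day 2 arrays lay above day 0 arrays in both lines, with changes of 0.325 (limma adjusted p = 0.852) in the EglN2 shRNA line and 0.155 (adjusted p = 0.643) in the Scr line.

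The SLC38 and SLC1 carriers of small neutral amino acids, 4 genes that use sodium, had mean changes from 0.045 to 0.23. SLC38A1, which takes up glutamine, read 12.72 and 12.71 in the EglN2 shRNA line at day 2, against 12.66 and 12.59 at day 0, and in the Scr line 12.57 and 12.63 at day 2, against 12.48 and 12.53 at day 0. The arrays did not overlap in either line, yet the changes were 0.09 in the EglN2 shRNA line (limma adjusted p = 0.979) and 0.095 in the Scr line (adjusted p = 0.680). SLC38A2, the carrier known for its induction when amino acids are withdrawn, read 12.52 and 12.57 in the EglN2 shRNA line at day 2, against 12.36 and 12.55 at day 0. Its Scr levels were 12.64 and 12.49 at day 2, against 11.96 and 12.43 at day 0. One Scr day 0 array, at 11.96, stood well below the other 7. It was replicate 1, the lower Scr day 0 array for every member except SLC7A5 and SLC7A1. The change of 0.37 in the Scr line (SE 0.15, adjusted p = 0.369) was 0.135 without that array and 0.605 without the other Scr day 0 array, and the EglN2 shRNA line had 0.09 (adjusted p = 0.986).

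SLC1A5, the exchanger through which cells take up glutamine, read 10.55 and 10.56 on the brighter of its probe sets (8037835) in the EglN2 shRNA line at day 2, against 10.21 and 10.53 at day 0. For Scr cells this probe set gave 10.54 and 10.50 at day 2, against 10.18 and 10.47 at day 0. In both lines the day 2 arrays were close together and one day 0 array was lower, and the mean change was 0.19 (limma adjusted p = 0.522). The dimmer probe set (8029854) read 7.94 and 7.70 in the EglN2 shRNA line at day 2, against 7.57 and 7.87 at day 0, and in the Scr line 7.95 and 7.80 at day 2, against 7.81 and 7.99 at day 0. Its arrays overlapped in both lines, and in the Scr line its change was -0.025, against 0.195 for the brighter probe set. SLC1A4, an exchanger of alanine, serine and cysteine, read 9.25 and 8.78 in the EglN2 shRNA line at day 2, against 8.70 and 8.93 at day 0, and in the Scr line 8.87 and 8.75 at day 2, against 8.87 and 8.97 at day 0. Its changes of 0.20 in the EglN2 shRNA line and -0.11 in the Scr line had opposite signs, and the arrays of the EglN2 shRNA line overlapped.

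**Figure D2:**
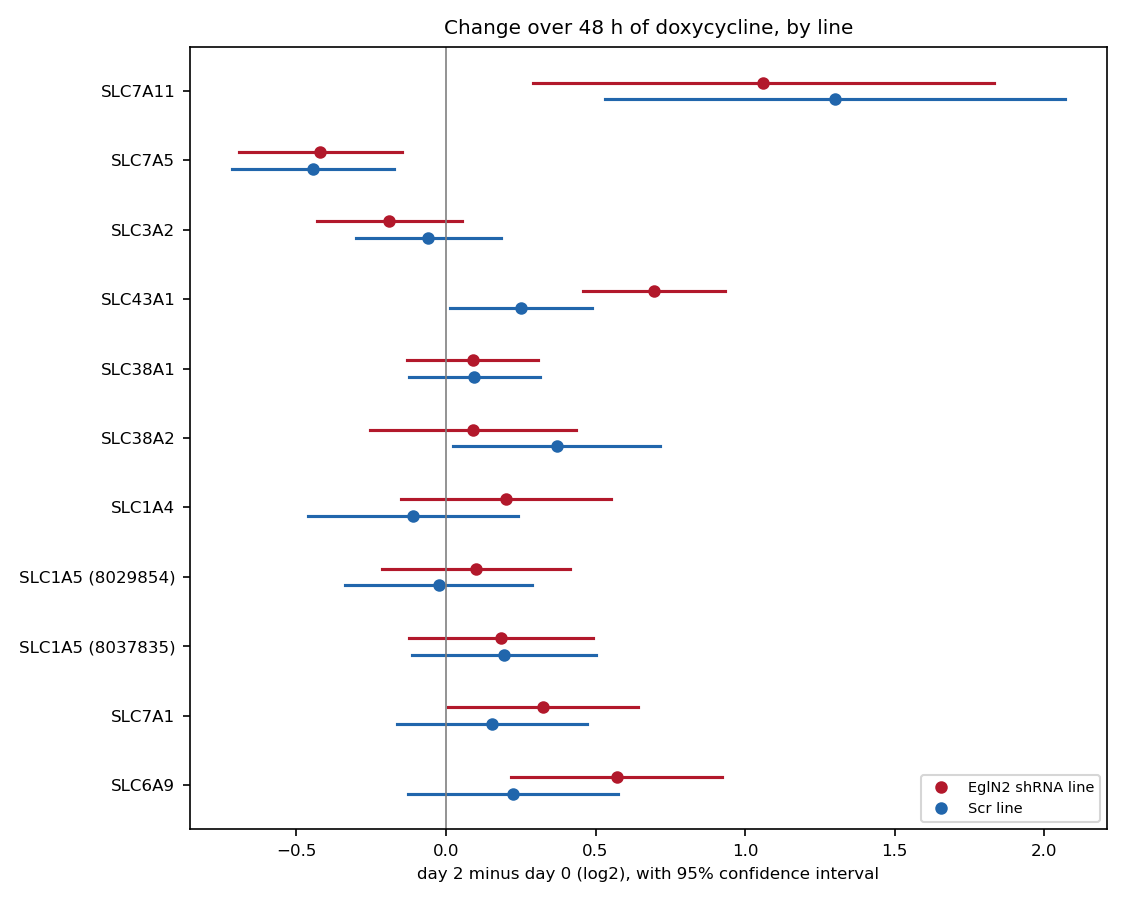
Change of each transporter probe set over 48 h of doxycycline (day 2 minus day 0, log2) in the EglN2 shRNA line and in the Scr line, with 95% confidence intervals from limma. SLC7A11 stands furthest to the right in both lines (1.06 and 1.30), SLC7A5 lies at about the same negative value in both (-0.42 and -0.445), and the intervals of SLC38A1 span 0 in both.

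Set against all probe sets, the transporters had no gene past the threshold in any of the 6 comparisons by limma. In the EglN2 shRNA line 0 of the 10 genes passed, against 0.00943% of probe sets, and 5 of 10 had an unadjusted p under 0.05, against 5.77%. In the Scr line 0 passed, against 0%, and 4 had an unadjusted p under 0.05, against 12.9%. In the mean of both lines 0 passed, against 0.141%, and 5 had an unadjusted p under 0.05, against 10.7%. Day 2 and day 0 arrays did not overlap for 8 genes in the EglN2 shRNA line, against 30.7% of probe sets, with 6 higher (15.2%) and 2 lower (15.5%). In the Scr line they did not overlap for 8, against 47.8%, with 6 higher (23%) and 2 lower (24.8%). They did not overlap in both lines, in the same direction, for 7 genes, against 9.31% of probe sets: SLC7A11, SLC43A1, SLC38A1, SLC1A5 (8037835) and SLC7A1 were higher (5 genes, against 5.24%), and SLC7A5 and SLC3A2 lower (2 genes, against 4.07%). The median mean change was 0.21 with 8 of 10 genes positive, against -0.0075 and 47.7% positive over 18417 genes. Leaving out EglN2 shRNA day 0 replicate 1 gave 0.12, and leaving out Scr day 0 replicate 1 gave 0.115. The members were chosen with results of these arrays known, so these counts describe the list.

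The changes of the EglN2 shRNA line and the Scr line were then compared. Each hairpin was in a single line, so this difference cannot separate the hairpin from other differences between the lines. By limma 0 transporters passed in this difference, against 0% of probe sets, and 1 of 10 had an unadjusted p under 0.05, against 7.12%. That gene was SLC43A1, whose change was larger in the EglN2 shRNA line by 0.445 (SE 0.15, interval 0.11 to 0.78, adjusted p = 0.676). It was the 1 gene of 10 for which the 4 possible changes of one line did not overlap those of the other, against 20.5% of probe sets, 10.1% with the larger change in the EglN2 shRNA line and 10.4% with the smaller. SLC6A9 differed by 0.345 (adjusted p = 0.727) and SLC1A4 by 0.31. For SLC7A11 the difference was -0.24 with an interval from -1.33 to 0.85, which is wider than the change of either line. For SLC7A5 it was 0.03, with an interval from -0.36 to 0.41. The median difference was 0.01, with 5 of 10 genes positive, against 50.6% of 18417 genes. It was 0.0911 with 7 positive after quantile normalization, 0.125 with 7 positive without Scr day 0 replicate 1 and 0.105 with 6 positive without EglN2 shRNA day 0 replicate 2. Without EglN2 shRNA day 2 replicate 1 it was -0.0075, and without EglN2 shRNA day 0 replicate 1 it was -0.0025.

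Compared directly at day 2, the EglN2 shRNA line had the higher mean for 8 of the 10 transporters, against 50.6% of 18417 genes. Among the 8, SLC3A2 (0.005) and SLC1A5 (8037835, 0.035) differed by less than their standard errors. By limma 0 passed, against 0.0754% of probe sets, and 2 had an unadjusted p under 0.05, against 5.19%. These were SLC6A9, higher in the EglN2 shRNA line by 0.46 (SE 0.16, interval 0.11 to 0.81, adjusted p = 0.744), and SLC43A1, higher by 0.335 (SE 0.11, interval 0.10 to 0.57, adjusted p = 0.637). Arrays of the lines did not overlap for 6 genes, against 30.4% of probe sets: 6 were higher in the EglN2 shRNA line, against 15.6%, and 0 lower, against 14.8%. The median over the 10 genes was 0.14, and 0.075 without EglN2 shRNA day 2 replicate 1. SLC7A11 was higher by 0.41 (adjusted p = 0.995), and SLC7A5 and SLC3A2 read -0.005 and 0.005.

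At day 0, before doxycycline, 0 transporters passed, against 0% of probe sets, and 0 had an unadjusted p under 0.05, against 10.4%. The EglN2 shRNA line already had the higher mean for 6 of the 10 genes, against 50.3% of 18417 genes, and the median was 0.08. SLC7A11 differed by 0.65 (SE 0.34, interval -0.12 to 1.42, limma adjusted p = 0.509), a value that lay between 0.03 and 1.27 when single arrays were left out. Its arrays overlapped between the lines, whereas those of SLC3A2 (0.135) and SLC38A1 (0.12) did not and were higher in the EglN2 shRNA line, 2 of 10 genes against 45% of probe sets (22.2% higher and 22.9% lower). SLC43A1, at -0.11, and SLC6A9, at 0.115, were close in the untreated lines.

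**Figure D3:**
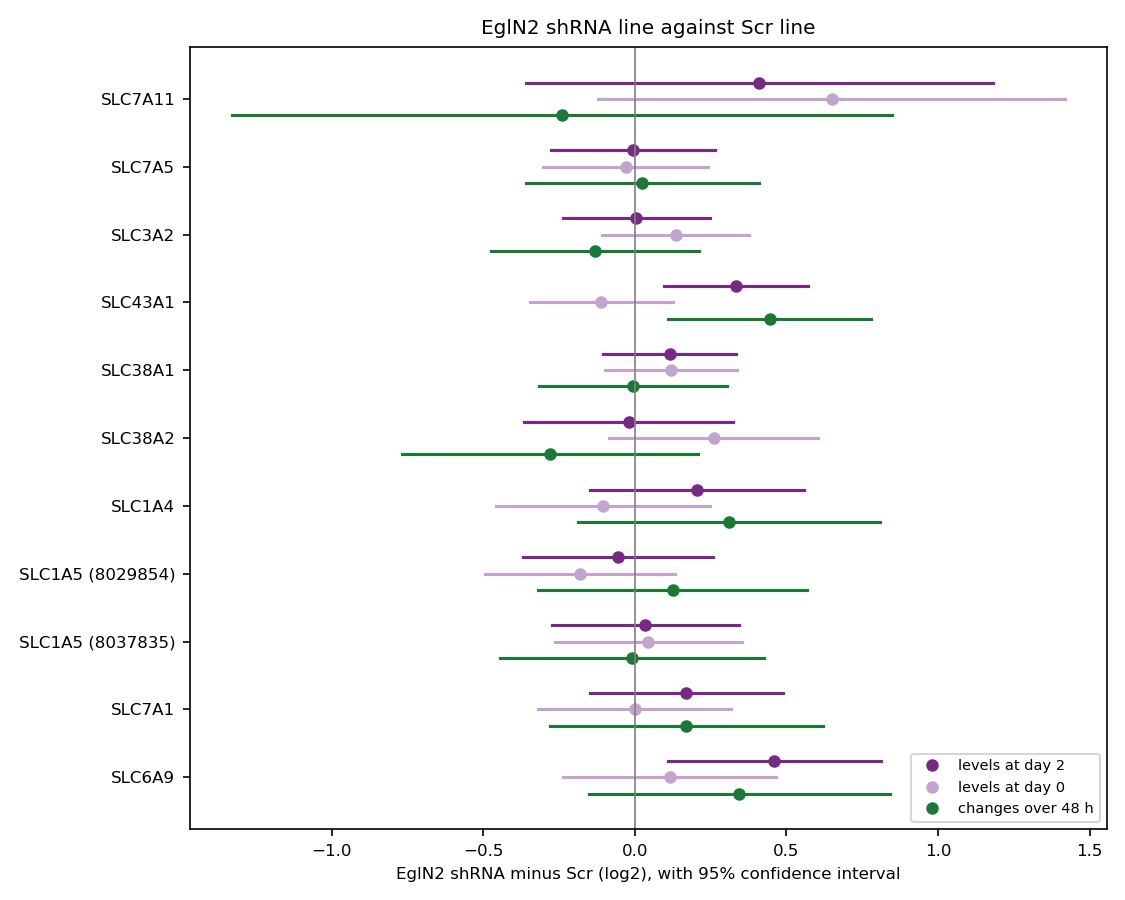
Difference between the EglN2 shRNA line and the Scr line for each transporter probe set (log2), in the levels at day 2, the levels at day 0 and the changes over 48 h, with 95% confidence intervals from limma. The intervals of SLC43A1 lie above 0 at day 2 (0.10 to 0.57) and in the changes (0.11 to 0.78), and those of SLC7A5 span 0 in each.

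Among the other 30 plasma membrane amino acid transporters measured, 0 rose and 0 fell in the mean of both lines by limma. A positive change was seen in 10 of the 30, against 47.7% of all genes, and the median was -0.03. The lines were unlike here. In the EglN2 shRNA line 20 of the 30 were positive (median 0.0475), against 50.5% of all genes. In the Scr line 11 were positive (median -0.0875), against 47.5%. Most of these 30 read below the median named probe set (7.84), whereas most of the members read above it. SLC7A13, for example, had group means from 3.9 to 4.13. Levels were not matched, so the medians of the 2 lists are not compared like for like. The glutamate carrier SLC1A2 had the smallest p, at 0.38 (adjusted p = 0.312), followed by the aromatic amino acid carrier SLC16A10 at 0.21, SLC7A13 at 0.17 and SLC36A2 at -0.175. Lysosomal amino acid transporters had a median of 0.055 over 9 genes, with 6 positive, 0 that rose and 0 that fell. Among them the peptide and histidine carriers SLC15A3 and SLC15A4 read 0.30 and 0.235, SLC7A14 read -0.165, and SLC38A9, the arginine sensor of the lysosome, read 0.21. Mitochondrial amino acid carriers had a median of 0.005 over 11 genes and 0 past the threshold, with SFXN3 at 0.24, the ornithine carrier SLC25A15 at 0.145, the serine carrier SFXN1 at 0.12 and the aspartate-glutamate carrier SLC25A13 at 0.075.

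Among genes that ATF4 is known to activate, transporters apart, 6 of 16 measured rose and 0 fell in the mean of both lines by limma, against 24 that rose and 4 that fell of all 18417 genes. A positive change was seen in 14 of the 16, against 47.7% of all genes, and the median was 0.46. The folate enzyme ALDH1L2 rose by 0.82 (SE 0.10, limma adjusted p = 0.0315), the mitochondrial PEP carboxykinase PCK2 by 0.56 (SE 0.07, adjusted p = 0.0315) and the secreted glycoprotein STC2 by 0.60 (SE 0.09, adjusted p = 0.0392). The 3 enzymes of serine synthesis rose as well: PSAT1 by 0.765 (adjusted p = 0.0371), PHGDH by 0.54 (adjusted p = 0.0371) and PSPH by 0.56 (adjusted p = 0.0388). The count of 6 was 1 without EglN2 shRNA day 2 replicate 1, 0 without any other single array, and 0 when all 33297 probe sets were tested. The list was chosen with results of these arrays known and is no independent evidence of its direction. By line the median was 0.43 in the EglN2 shRNA line and 0.415 in the Scr line, with 0 genes past the threshold in either. ATF4 itself read 0.44 (SE 0.08, adjusted p = 0.0837), and 0 of 13 kinases and factors of its pathway passed, with DDIT3 at 0.46, ATF5 at -0.325 and PPP1R15B at 0.195.

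Of 17 measured NRF2 targets other than SLC7A11, 0 rose and 1 fell in the mean of both lines, against 24 and 4 of all 18417 genes. In that mean 5 were positive, against 47.7% of all genes, and the median was -0.035. By line 4 were positive in the EglN2 shRNA line (median -0.07), against 50.5% of all genes. In the Scr line 8 were positive (median -0.03), against 47.5%. The gene that fell was the quinone reductase NQO1, by 0.59 (SE 0.07, limma adjusted p = 0.0312), a call that was lost when any single array other than EglN2 shRNA day 2 replicate 1 was left out, and when all probe sets were tested. GCLM, a subunit of the enzyme that makes the glutathione precursor from cysteine, read -0.485 (adjusted p = 0.108), AKR1C1 and AKR1B10, a pair of aldo-keto reductases, read -0.335 and 0.24, and NFE2L2, which encodes NRF2, read -0.17 (adjusted p = 0.490). Of 9 measured factors known to act on transporter genes 0 passed, 2 were positive, and MYC, a known activator of SLC7A5, read -0.55 (SE 0.13, adjusted p = 0.195), with ESR1 at -0.20 and HIF1A at 0.11.

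**Figure D4:**
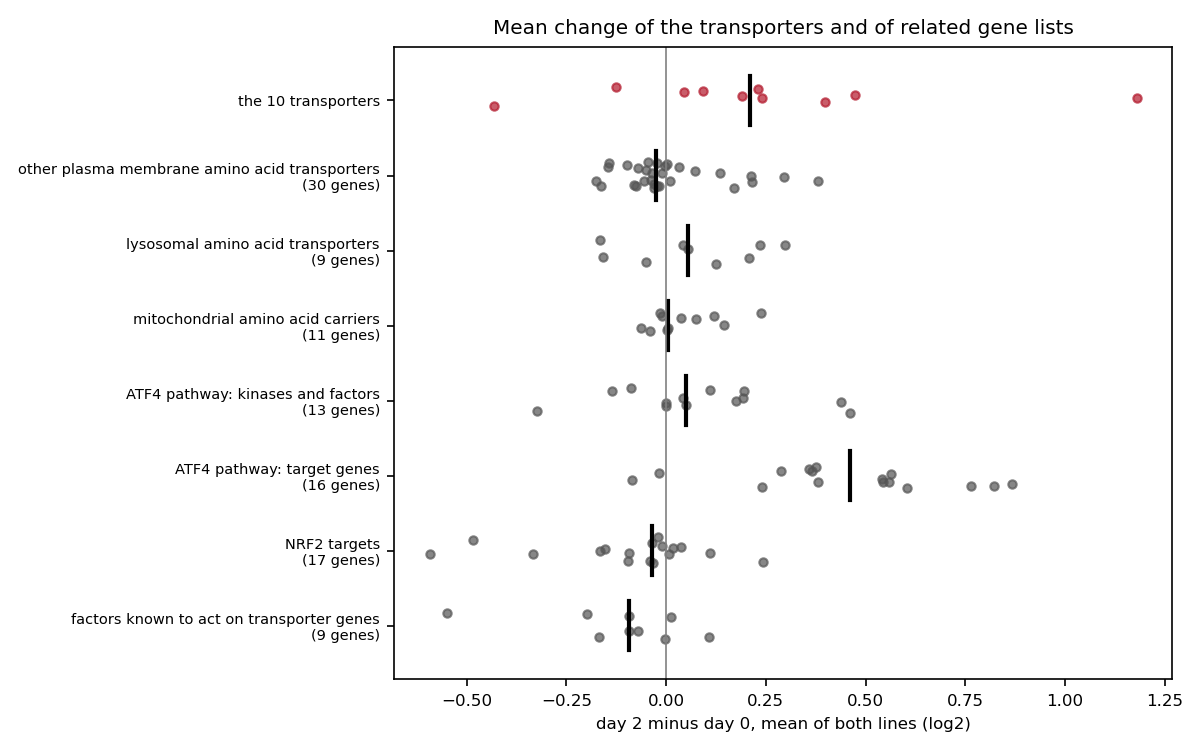
Change from day 0 to day 2 (log2, mean of both lines) of the 10 transporters and of the genes of 7 related lists, with a point per gene, vertical bars at the medians, and vertical jitter without meaning. The transporters have a median of 0.21 and span -0.43 to 1.18, the ATF4 target genes have a median of 0.46, and the other plasma membrane amino acid transporters have a median of -0.03. Most of these other transporters read below the median named probe set (7.84), and levels are not matched between lists.

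The genes with levels most like those of the 3 transporters with the widest range of group means were found by the root mean square difference of centred log2 values over the 8 arrays. Nearest to SLC7A11 were SERPINA6 (0.302), SPINK4 (0.311) and the asparagine synthetase gene ASNS (0.353), against a spread of SLC7A11 about its own mean of 0.743. Nearest to SLC43A1 were TYRP1 (0.0474), PRSS8 (0.0804) and PDPR (0.0927), against its own 0.272. Nearest to SLC6A9 were LINC02893 (0.0971), MRGPRX3 (0.108) and the threonyl-tRNA synthetase gene TARS1 (0.118), against its own 0.294. These are descriptions of 8 arrays that share their groups.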

How the data were processed

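RNA of T47D cells was hybridised to Affymetrix Human Gene 1.0 ST arrays. The deposited values are log2 RMA levels per probe set, which the authors made in Affymetrix Expression Console according to the processing notes of the submitters. No source used here names versions or the array's genome build. The files hold 33297 probe sets, of which 19460 carry 1 gene symbol, 1754 several and 12083 none. Symbols were updated by gene ID through RefSeq (GRCh38.p14), which matched 19429 of the single names. Depth has no meaning for arrays, and their number limits the precision.

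With limma 3.58.1 (R 4.3.3), 1 model of the 4 group means was fitted over all 8 arrays by lmFit, contrasts.fit and eBayes, two-sided, for 6 comparisons over 21214 named probe sets with Benjamini-Hochberg adjustment at 0.05. There were 4 residual and 5.53 prior degrees of freedom. Scripts were tested on simulated data. The transporters and the gene lists were chosen with earlier results of these data known. A gene with several probe sets is described by the brightest. The text names all members, EGLN2, up to 4 genes per list with the smallest p in the mean change, any called gene, and the 3 nearest genes of 3 members. Alternatives were a replicate block, leaving out each array, all probe sets, a mean level of 6 or more, quantile normalization, median centring, an intensity-dependent prior, and only the arrays of the groups compared.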

Additional observations from a re-analysis of the deposited data

How the results depend on the processing

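Of 968 transporter values under the alternatives, 908 kept their direction and their side of the threshold, 54 uncalled values changed sign, and 6 passed newly, all in the mean of both lines: SLC7A11 (limma adjusted p = 0.0122), SLC43A1 (0.0309) and SLC7A5 (0.0415) with a replicate block, SLC43A1 (0.0408) at a mean level of 6 or more, and SLC43A1 (0.0470) and SLC7A5 (0.0418) with an intensity-dependent prior. Same-numbered arrays deviated together between groups at correlations of 0.098 to 0.271, and the labels give only a number, so the numbers were not taken to pair the samples. With the replicate block 13 probe sets were called in the EglN2 shRNA line (otherwise 2), 42 in the Scr line (0), 150 in the mean of both (30) and 32 between the lines at day 2 (16). With all 33297 probe sets these counts were 0 in the EglN2 shRNA line, 0 in the mean and 0 at day 2. With the intensity-dependent prior they were 6 in the Scr line, 76 in the mean, 26 at day 2 and 2 in the difference of the changes (0). With only the arrays of the groups compared they were 0 in the EglN2 shRNA line and 0 at day 2. Without single arrays they ran from 0 to 2 in the EglN2 shRNA line, from 0 to 20 in the mean and from 0 to 15 at day 2, and were 0 in the Scr line, in the difference and at day 0. In the mean the count was 20 without EglN2 shRNA day 2 replicate 1, 6 without EglN2 shRNA day 2 replicate 2 and 0 without any other array. The transporters' median then ran from 0.10 (without EglN2 shRNA day 0 replicate 1) to 0.33 (without EglN2 shRNA day 0 replicate 2) in the EglN2 shRNA line, from 0.06 (without Scr day 0 replicate 1) to 0.20 in the Scr line, from 0.115 to 0.27 in the mean, from -0.0075 to 0.125 in the difference, from 0.075 to 0.145 at day 2 and from 0 to 0.17 at day 0. SLC7A11 ran from 0.87 to 1.49, SLC43A1 from 0.43 to 0.515 and SLC7A5 from -0.50 to -0.36 in the mean. After quantile normalization the transporters' median was 0.0997 in the Scr line (otherwise 0.175) and 0.0059 between the lines at day 0 (0.08). The ATF4 target count, an alternative added after seeing the data, was 8 with the block, 8 at a mean level of 6 or more, 4 after quantile normalization, 6 after median centring and 9 with the intensity-dependent prior. The cause of these shifts was not tested.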

Other observations

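Transporters of metals and sugars stood beside the amino acid carriers as follows, in the mean change of both lines by limma. Of 21 zinc, iron and copper transporters 0 rose and 0 fell, 16 were positive, against 47.7% of all genes, and the median was 0.135. The iron and manganese importer SLC11A2 read 0.40 (adjusted p = 0.116), and the copper transporters SLC31A2 and SLC31A1 read 0.35 (adjusted p = 0.204) and 0.30, and the zinc and iron importer SLC39A14 read 0.25. Between the lines at day 0 none of these 21 passed (0 higher and 0 lower by limma). The difference, EglN2 shRNA minus Scr, was positive for 17 of 21, against 50.3% of all 18417 genes, with a median of 0.20. Of 7 measured glucose and lactate transporters 0 passed, 3 were positive and the median was 0.00, with the glucose carriers SLC2A1 at -0.17, SLC2A3 at -0.06, SLC2A8 at -0.03 and SLC2A10 at 0.03.

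The genes through which cells sense amino acids for mTORC1, the kinase complex that promotes growth, had a median of 0.045 over 20 measured members, with 12 positive and 0 past the threshold. The leucine sensor SESN2 read 0.24, the GTPase RRAGD 0.32, the leucine-binding SAR1B -0.26 and MTOR 0.18. Regulators of transporter proteins had a median of 0.04 over 10 measured members, with 7 positive and 0 past the threshold. EI24 had the smallest p, at -0.345 (limma adjusted p = 0.157), and CLTRN, a partner of neutral amino acid carriers in kidney, read 0.31 (adjusted p = 0.292). TXNIP, which restrains glucose uptake, read 0.415 and the transporter chaperone BSG 0.18.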
